A study of Mus musculus with 34 samples.

Results

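Ear-skin mast cells (MCs) that carried much or little RNA of Arl4c, Sla and Lgals1 were compared within 6 mice. Cells were chosen by the summed level of these 3 genes, the score, given as transcripts per 10000 transcripts outside the predicted genes named Gm plus a number. Within each of the 30 MC libraries, cells were ranked by score and cut into 4 equal parts, and the top part (score-high, 539 cells over all libraries) was set against the bottom part (score-low, 539 cells). The remaining 1118 of the 2196 kept MCs lay between, and the whole series held 2503 kept cells, of which 307 came from a Myh11-GFP sort. Since the score itself chose the cells, levels of Arl4c, Sla and Lgals1 are a description without a test, and these genes took no part in totals or tests. Levels are given as TPM, here transcripts of a gene per 1000000 transcripts outside Gm genes, without division by gene length. They are used here to compare a gene between cells, and levels of different genes were not tested against each other. For tested genes the total also left out the score genes. Their TPM were scaled by TMM, except where all 4 parts of the libraries are shown.

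Single-cell RNA was measured by mCEL-Seq2, a plate method that tags the 3′ end of each transcript with a molecular identifier, in 12 libraries from 3 WT mice and 18 libraries from 3 Tln1∆MC mice. All 6 were male mice of 7 weeks that carried Mcpt5-cre and the R26LSL:YFP reporter, and MCs were sorted as CD45+Lin−YFP+ cells of digested ear skin. WT mice were Mcpt5-cre+/− Tln1+/+ R26LSL:YFP littermates, and Tln1∆MC mice were Mcpt5-cre Tln1fl/fl R26LSL:YFP, in which Cre under the Mcpt5 promoter, active in connective tissue MCs, deletes the gene of talin-1. The study's methods give these crosses a C57BL/6J-Albino background (Tyrc-2J/c-2J) and its other strains, Myh11-GFP mice among them, a C57BL/6J one. The mouse was the replicate, with 4 to 10 libraries and 196 to 923 kept cells each. Tln1 itself, read at its 3′ end, had a log2 difference between the sets of 0.33 ± 0.12 (SE, n = 6 mice), which did not pass the test (limma, adjusted p = 0.0904), and it was read at 371 to 577 TPM in the score-high sets of the Tln1∆MC mice and at 547 to 796 in those of the WT mice. The sources used here do not place the deleted exons, so this reading was no check of the deletion.

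MCs are long-lived tissue cells that store histamine, heparin and proteases in granules and release them when IgE receptors or MRGPR receptors are engaged. They also make cytokines after stimulation, and their survival rests on KIT and its ligand. Arl4c (chr1:88673125-88702221, minus strand, GRCm38) encodes a small GTPase of the ARF family that acts at the plasma membrane on actin and cytohesins. Sla (chr15:66780819-66831829, minus strand) encodes SLAP, an adaptor that dampens signalling of tyrosine-kinase-linked receptors. Lgals1 (chr15:78926725-78930465, plus strand) encodes galectin-1, a secreted lectin that binds β-galactosides. The positions are those of GENCODE M21.

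The sorted cells carried MC transcripts in both sets. Cpa3, which encodes the MC carboxypeptidase, was found in 99.8% of cells of either set. Over all kept MCs, Arl4c stood at 520 TPM and was found in 69.3% of cells, Sla at 608 TPM in 69.6% of cells, and Lgals1 at 896 TPM in 85.1% of cells, at a median of 3700 transcripts per cell. In the 307 CD45−GFP+ cells of the Myh11-GFP sort, with a median of 4089 transcripts, Arl4c was found in 8 cells (2.61%), Sla in 0 cells, which for counting error allows up to 0.977% of cells with a Sla molecule and does not limit expression below detection, and Lgals1 in 236 cells (76.9%) at 706 TPM. After thinning to 1000 molecules a cell Arl4c was found in 834, Sla in 852 and Lgals1 in 1190 of 2195 MCs, against 1, 0 and 131 of 307 Myh11-GFP cells. Arl4c and Sla were thus found in few or no Myh11-GFP cells at this depth, whereas Lgals1 was frequent in both sorts.

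The score varied between mice as well as within them. Its median was 18.8, 26.3 and 26.1 in WT mice 1 to 3 and 19.03, 17.1 and 14.7 in Tln1∆MC mice 1 to 3, and the ranges of the genotypes overlapped. The genes were chosen with earlier results on these cells known, so the genotypes' score levels were not tested. The lowest score taken into the score-high set ranged from 20.4 to 48.9 over the libraries (median 29.3), and the highest score just below it from 20.1 to 47.4 (median 29.03). At the other end, the highest score in the score-low set ranged from 5.43 to 19.7 (median 9.47) and the score just above it from 7.71 to 19.8 (median 9.75). A score of 0 was found in 96 cells, all of them in the score-low set.

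**Figure D1:**
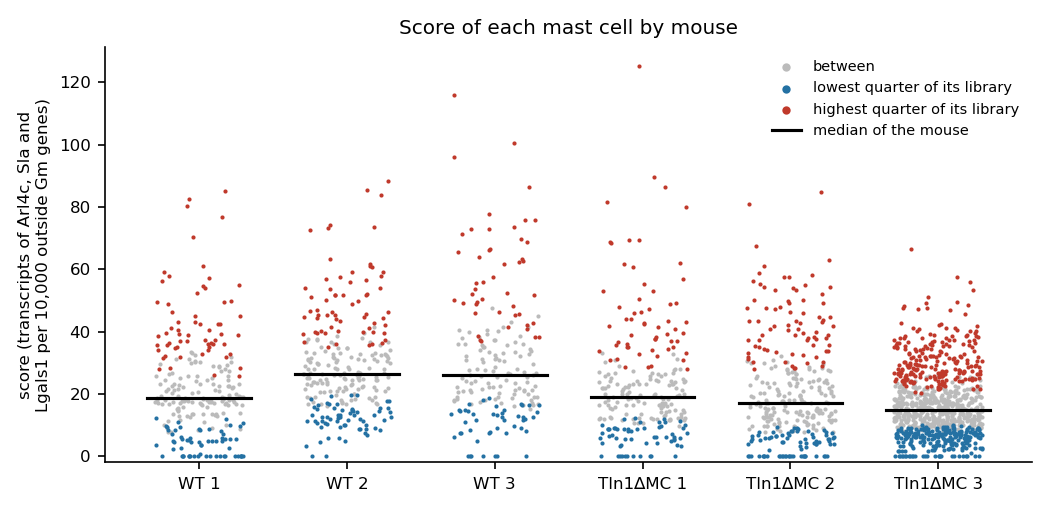
Score of every kept MC by mouse, as transcripts of Arl4c, Sla and Lgals1 per 10000 transcripts outside Gm genes. Red points are score-high and blue points score-low cells, grey points lie between, and bars mark the medians, of which that of WT mouse 2 (26.3) was the highest.

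When cells were ranked by only 2 of the genes, the left-out gene was still higher on average in the upper set, as a description since the 3 were chosen together. Arl4c ranked by Sla and Lgals1 stood at 846, 943, 1044, 837, 707 and 568 TPM in the upper sets of WT mice 1 to 3 and Tln1∆MC mice 1 to 3, and at 318, 445, 647, 605, 253 and 257 in the lower ones. It was higher in the upper set of each mouse, with a mean log2 difference of 1.04 ± 0.40 (SD, n = 6). Sla ranked by the other 2 genes differed by 0.89 ± 0.37 and Lgals1 by 0.32 ± 0.28, and for Lgals1 Tln1∆MC mouse 1 went the other way at −0.13. Ranked within depth strata, Arl4c differed by 0.93 ± 0.35, Sla by 0.82 ± 0.42 and Lgals1 by 0.20 ± 0.23, with the same mouse again at −0.13 for Lgals1.

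The sets also differed in depth, in RNA quality and in RNA of other skin cells. The median number of transcripts per cell outside Gm genes averaged 3398 in the score-high and 2604 in the score-low set (mean log2 ratio 0.36, higher in 6 of 6 mice, two-sided exact permutation p = 0.03125, the smallest that 6 pairs allow). Gm genes took 25.9% of transcripts in the score-high and 40.0% in the score-low set (exact permutation p = 0.03125, lower in 6 of 6 mice), and mitochondrial genes 11.0% and 13.1% of the rest (exact permutation p = 0.03125). Sets taken within 4 depth strata of each library removed the depth difference (mean log2 ratio −0.04, exact permutation p = 0.125) but not that of the Gm share (27.7% and 36.9%).

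Keratinocyte markers summed to 15.7 to 943 TPM in the score-high sets of the 6 mice and to 19.1 to 11232 in the score-low sets, and 4 of 18 reached the minimum for testing. Fibroblast markers, of which 5 of 18 reached it, summed to 57.6 to 1040 TPM in the score-high and to 158 to 31589 in the score-low sets. Macrophage markers, with 5 of 18 tested, summed to 151 to 7794 and to 225 to 7283 TPM. Cells with over 1% of transcripts on markers of macrophages, keratinocytes, fibroblasts, endothelial or mural cells numbered 12 in the score-high set, 36 between and 39 in the score-low set, and WT mouse 2 held 10 and 16 of those in its score-high and score-low set. Keratinocytes and fibroblasts lie outside the CD45+Lin−YFP+ gate, and where these transcripts came from was not tested. The pattern was not uniform, since keratinocyte markers in Tln1∆MC mouse 1 were at 15.7 TPM in the score-high and 19.1 TPM in the score-low set, and fibroblast markers in WT mouse 1 were highest in the cells between, at 4804 TPM. Results are therefore given for all kept cells and, for the main groups of genes, also for the cells with at most 1% of such RNA and for those with at most 0.5% in sets taken within depth strata, both ranked anew.

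**Figure D2:**
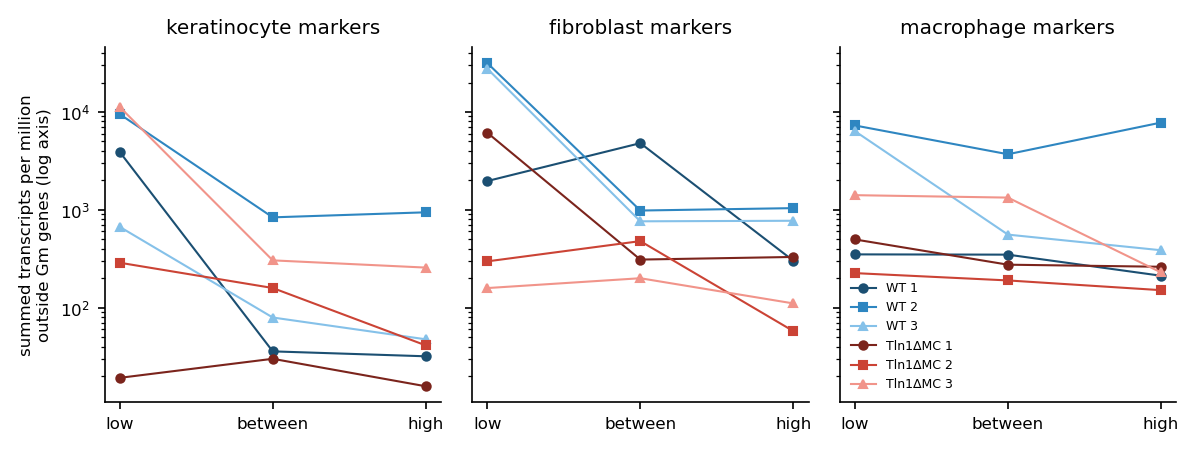
Summed TPM of the keratinocyte, fibroblast and macrophage marker lists (log axis) in the score-low set, the cells between and the score-high set of each mouse. Keratinocyte and fibroblast markers reach 11232 and 31589 TPM in the score-low sets, while WT mouse 2 keeps macrophage markers in all 3 classes.

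Among 3898 genes tested, 292 (7.49% of those tested) were higher and 201 (5.16%) lower in the score-high than in the score-low set (limma with the mouse as a block, Benjamini-Hochberg adjusted p under 0.05). The median log2 difference over all genes was 0.06. Without the cells over 1% other-type RNA, 176 genes (5.15%) were higher and 205 (6.0%) lower, of which 142 and 107 were shared with the calls on all cells. With the 0.5% limit and depth strata, 129 (4.22%) were higher and 112 (3.66%) lower, and with sets taken within strata of the Gm share 190 (5.14%) and 140 (3.79%). Calls in either direction made up 12.6% of the genes tested in all kept cells, 11.2% without the cells over 1%, 7.88% with the 0.5% limit and depth strata and 8.93% with the Gm strata. Irrespective of the test, 446 genes (11.4%) were higher and 221 (5.67%) lower in all 6 mice. Leaving out WT mouse 1, WT mouse 3 or Tln1∆MC mouse 3 lowered the higher calls to 142, 152 and 161 and the lower calls to 96, 112 and 129.

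Immediate early genes, which many stimuli switch on within minutes, were lower in score-high MCs in 13 of 24 tested members, against 5.16% of all genes. Of the 28 listed, 1 was higher and 10 tested members were not called, with a median log2 difference of −0.56 against 0.06 over all genes. Fos, a subunit of the AP-1 transcription factor, stood at 391, 213 and 435 TPM in the score-high sets of WT mice 1 to 3 and at 258, 554 and 712 in those of Tln1∆MC mice 1 to 3. In the score-low sets it stood at 3984, 1783, 2376, 3712, 6012 and 3279 TPM in the same order. No score-high set reached the level of any score-low set, and Fos was 8.31-fold lower in the score-high sets (log2 difference −3.06 ± 0.18 SE, n = 6 mice, limma adjusted p = 2.45e-07). Levels of a gene separated the sets in this way, all 6 score-high below all 6 score-low, for 22 of the 3898 genes (0.564%).

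Dusp1, a phosphatase that switches off MAP kinases, was at 280 to 613 TPM in the score-high and 943 to 1971 in the score-low sets, without overlap (log2 difference −1.90 ± 0.15 SE, limma adjusted p = 5.5e-06, n = 6 mice). Jun, the partner of FOS in AP-1, was at 1160 to 2066 and 3302 to 7212 TPM (−1.61 ± 0.13, limma adjusted p = 5.51e-06, n = 6 mice). Zfp36, whose product destabilises cytokine mRNAs, was at 430 to 1281 and 1332 to 2148 TPM (−1.39 ± 0.13, limma adjusted p = 3.14e-05, n = 6 mice). Klf2, Ier2, Junb and Klf6 were lower by log2 differences of −1.55, −1.40, −1.01 and −0.79, each in 6 of 6 mice. Nfkbia, the inhibitor of NF-κB, differed by −0.38 and Rgs2, a regulator of G protein signalling outside this list, by −0.43. Nr4a3, an orphan nuclear receptor, was the 1 member that was higher (log2 difference 0.50 ± 0.13, limma adjusted p = 0.0256). Atf3, at −1.25 in all cells, was not called once cells over 1% other-type RNA were left out (−0.25, limma adjusted p = 0.62).

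With sets taken within depth strata alone 14 members were lower, beside 187 of all 3777 genes tested. Without cells over 1% such RNA 16 of 24 members were lower and 1 was higher, beside 6.0% and 5.15% of all genes. With the 0.5% limit and depth strata 16 were lower and 1 was higher, beside 3.66% and 4.22% of all genes. There Fos differed by −3.40, Dusp1 by −2.25, Jun by −1.72 and Zfp36 by −1.67. The count of members lower was 11 to 14 when any 1 mouse was left out, beside 96 to 213 lower among all genes. It was 14 with strata of the Gm share (all genes: 140 of 3696). In WT mice alone it was 12 (all genes: 144 of 3636) and in Tln1∆MC mice alone 9 (all genes: 19 of 5116). Hspa1a, a heat shock protein listed apart, was also lower (log2 difference −2.24 ± 0.27, limma adjusted p = 0.000201, n = 6 mice). It was 1 of 3 called among 20 chaperone genes tested, against 12.6% of all genes in either direction, next to Herpud1 and Xbp1 of the unfolded protein response, which were higher by 0.71 and 0.60. After removal of cells over 1% other-type RNA, 3 of 20 were lower, Hspa1a, Dnajb1 (−0.61) and Ddit3 (−0.79), beside 6.0% of all genes. Xbp1 alone was higher there, beside 5.15% of all genes, while Herpud1 was not called (0.48, limma adjusted p = 0.0502). With the 0.5% limit and depth strata Hspa1a and Dnajb1 were lower and Herpud1 was higher (0.56) of 20 tested, beside 3.66% and 4.22% of all genes. Xbp1 was not called there (0.44, limma adjusted p = 0.123).

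**Figure D3:**
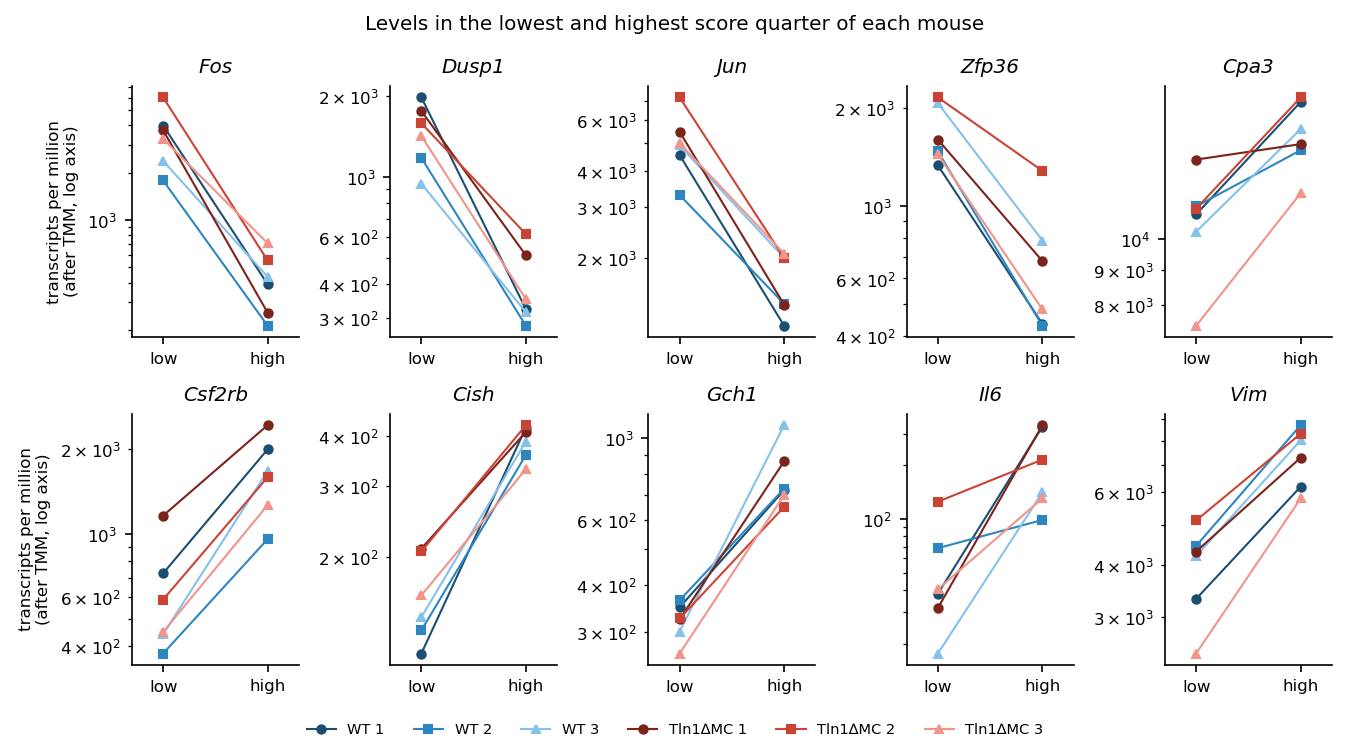
Levels of 10 genes in score-low and score-high cells of each mouse, in TPM after TMM scaling (log axes, differing between panels), 1 line a mouse. Fos, Dusp1, Jun and Zfp36 fall in each of the 6 mice, and Csf2rb, Cish, Gch1, Il6 and Vim rise in each, Cpa3 by less.

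Most of these levels changed in steps across the score rather than at its ends alone. With all 4 parts of each library and no TMM scaling, mean Fos over the 6 mice was 3394, 2667, 1035 and 443 TPM from the lowest to the highest. It fell at each step in 4 of 6 mice. Dusp1 went from 1435 over 1251 and 597 to 410 and fell at each step in 5 of 6 mice, and Jun went from 4884 over 4434 and 2501 to 1715. Zfp36 was at 1609.5, 1500, 665 and 697, with its drop between the second and the third part. Csf2rb rose from 610 over 1067 and 1484 to 1715, at each step in 5 of 6 mice, and Cish from 154 over 256 and 338 to 403, at each step in 6 of 6. Cma1 and Cpa3 behaved otherwise: Cma1 was at 9551, 14392, 14726 and 15146 and Cpa3 at 10335, 14683, 15225 and 14798, lower in the score-low set, with little change of the mean above it. Single mice differed there: from the second to the top part Cma1 went from 11787 to 15956 in Tln1∆MC mouse 2 and from 13295 to 12039 in Tln1∆MC mouse 1, and Cpa3 from 11784 to 15827 in Tln1∆MC mouse 2.

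**Figure D4:**
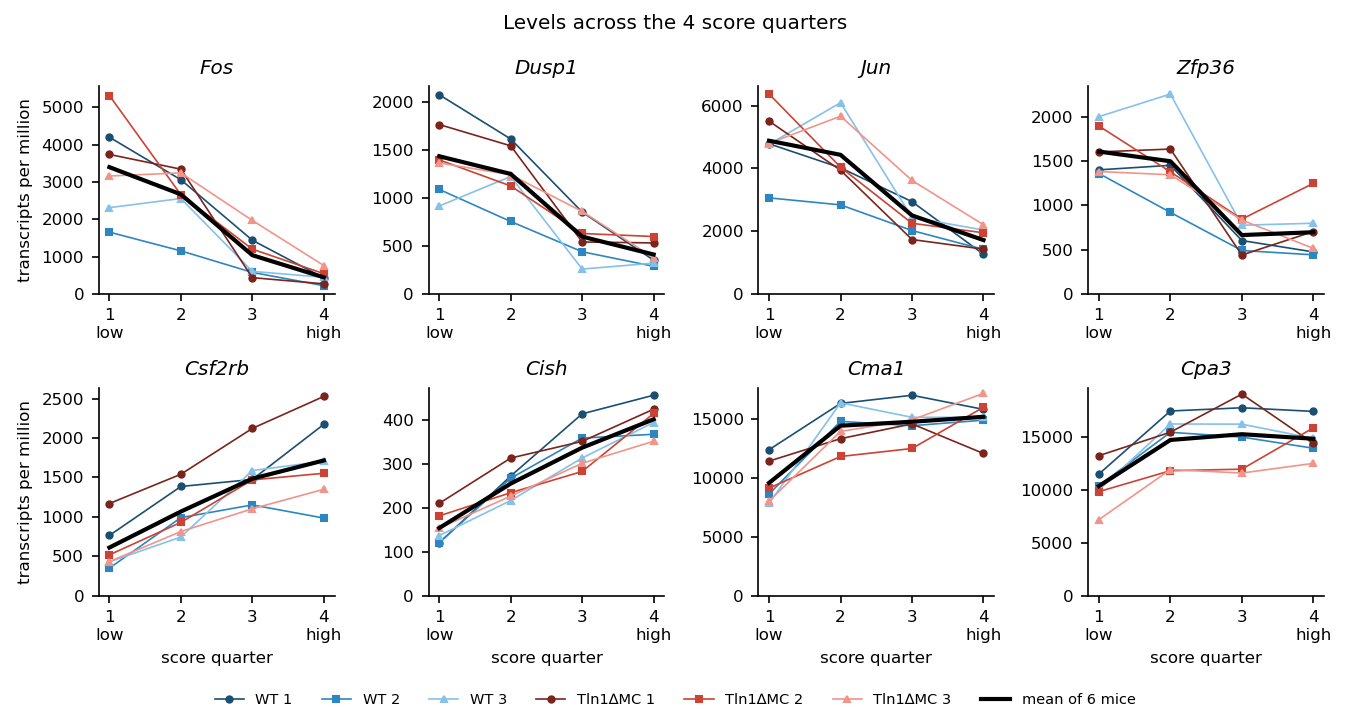
Levels of 8 genes, in TPM outside Gm and score genes without TMM scaling, across the 4 score classes of each mouse (thin lines) and their mean (black). Fos falls from a mean of 3394 to 443 and Cish rises from 154 to 403, while the means of Cma1 and Cpa3 are low in class 1 and change little from class 2 on.

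The promoters of 3 genes that moved strongly are shown because Fos and Dusp1 were the immediate early genes with the largest negative differences and Srxn1 had the second largest positive one. Each is the 250 bases before the RefSeq start site (GRCm38.p6), read 5′ to 3′ on the gene's strand. Capitals mark matches on either strand to TTCNNNGAA (STAT), TGANTCA (AP-1), TGACGTCA (cAMP response element, CRE), its core TGACG, which overlaps the full element, or TGACNNNGC (antioxidant response element, ARE).
Fos, chr12:85473640-85473889, plus strand: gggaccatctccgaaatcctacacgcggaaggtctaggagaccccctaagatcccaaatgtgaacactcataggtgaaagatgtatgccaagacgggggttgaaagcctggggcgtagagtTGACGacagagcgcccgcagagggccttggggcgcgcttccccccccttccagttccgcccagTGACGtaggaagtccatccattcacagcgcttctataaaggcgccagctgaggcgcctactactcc
Dusp1, chr17:26508473-26508722, minus strand: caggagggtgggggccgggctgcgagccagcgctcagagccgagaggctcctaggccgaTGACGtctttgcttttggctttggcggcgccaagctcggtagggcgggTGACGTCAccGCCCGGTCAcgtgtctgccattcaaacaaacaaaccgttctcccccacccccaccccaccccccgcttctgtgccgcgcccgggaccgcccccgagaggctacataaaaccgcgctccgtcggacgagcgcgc
Srxn1, chr2:152105274-152105523, plus strand: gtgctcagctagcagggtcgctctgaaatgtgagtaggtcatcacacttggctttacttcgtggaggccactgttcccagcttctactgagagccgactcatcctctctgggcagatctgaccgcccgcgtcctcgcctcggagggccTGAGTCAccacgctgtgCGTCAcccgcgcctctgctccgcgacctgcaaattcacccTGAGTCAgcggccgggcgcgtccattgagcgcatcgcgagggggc
Fos held 2 CRE cores, at bases 129 to 125 and 66 to 62 before the start. Dusp1 held a full CRE at 143 to 136, another CRE core at 191 to 187 and an ARE match at 133 to 125. Srxn1 held 2 AP-1 matches, at 102 to 96 and 45 to 39, and a CRE core at 85 to 81. A full CRE was found in 5.95% of the 185 windows of genes that were lower, 1.31% of the 305 windows of genes that were higher, 3% of the 3933 windows of tested genes and 1.55% of all 32851 windows. For AP-1 these shares were 5.41%, 6.56%, 4.37% and 6.75%, for ARE 12.4%, 16.7%, 12.6% and 10.2%, for STAT 8.65%, 4.59%, 5.54% and 7.02%, and for the CRE core 29.2%, 24.3%, 29.5% and 17.8%. A window was found for 225 of the 292 genes that were higher and 136 of the 201 that were lower, and the matches describe letters only.

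Of 13 tested cytokine receptor genes and feedback genes of the JAK-STAT pathway, 7 were higher and 0 lower in score-high MCs. Over all genes 7.49% were higher. The list of 20 was drawn up after the values had been seen, and its median log2 difference was 0.64. Csf2rb, the common β chain of the IL-3, IL-5 and GM-CSF receptors, stood at 1997, 959, 1673, 2433, 1591 and 1266 TPM in the score-high sets of WT mice 1 to 3 and Tln1∆MC mice 1 to 3, and at 725, 377, 441, 1162, 586 and 449 in the score-low sets. It was higher in the score-high set of each mouse, 2.74-fold in the fit (log2 difference 1.45 ± 0.12 SE, limma adjusted p = 7.54e-06, n = 6 mice), though the level of Tln1∆MC mouse 1 in its score-low set exceeded that of WT mouse 2 in its score-high set. Cish, a STAT5-induced inhibitor of cytokine signalling, was at 331 to 426 TPM in the score-high and 114 to 209 in the score-low sets, without overlap (1.30 ± 0.15, limma adjusted p = 0.000143, n = 6 mice). For 84 of 3898 genes (2.15%) all 6 score-high sets lay above all 6 score-low sets. Il17ra, the receptor chain for IL-17, differed by 1.11, the kinase gene Jak2 by 0.81, Il2rg, the common γ chain, by 0.69, the kinase gene Pim1 by 0.64 and Mcl1, which protects from apoptosis, by 0.48. Without cells over 1% other-type RNA 6 of 12 tested were higher, beside 5.15% of all genes. With the 0.5% limit and depth strata 4 of 12 were, beside 4.22% of all genes, with Csf2rb at 1.16 and Cish at 0.79.

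The 20 genes with the largest positive differences held further members of several functions. Il6, an inflammatory cytokine, stood at 328, 98.6, 140, 334, 214 and 130 TPM in the score-high sets of the mice in the order above and at 38.2, 68.5, 17.6, 31.7, 125 and 40.4 in the score-low sets. It was higher in 6 of 6 mice with overlapping levels (log2 difference 2.05 ± 0.34 SE, limma adjusted p = 0.00163). Srxn1, sulfiredoxin, which restores oxidised peroxiredoxins, ranged from 71.7 to 471 and from 19.5 to 86.8 TPM (1.91 ± 0.22, limma adjusted p = 0.000143, n = 6 mice). Srxn1 and Txn1, thioredoxin (0.62), were the 2 called of 7 tested genes in a list of NRF2 targets also drawn up afterwards. Over all genes 12.6% were called in either direction. Gch1, which starts tetrahydrobiopterin synthesis, was at 652 to 1084 and 262 to 364 TPM without overlap (1.29 ± 0.14, limma adjusted p = 7.54e-05, n = 6 mice).

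Others in this set were Olr1, a scavenger receptor for oxidised LDL (1.74), Gzmb, granzyme B (1.55), Flrt3, an adhesion protein (1.49), and Tank, an adaptor of TRAF signalling (1.47). They also included Fem1b, a substrate receptor of an ubiquitin ligase (1.40), Atp6v0d2, a subunit of the proton pump of lysosomes (1.38), Eaf1, an elongation factor partner (1.38), and Rab32, a GTPase of lysosome-related organelles (1.37). Cipc, a partner of the clock protein CLOCK (1.47), Pstpip1, a cytoskeletal adaptor (1.28), and S1pr3, a sphingosine phosphate receptor (1.22), followed, as did Fam110c (1.62), Phxr4 (1.34) and the uncharacterised RP23-285C18.7 (1.85) and A130071D04Rik (1.48). With the 0.5% limit and depth strata, 19 of the 20 were still called, and Olr1 was not (1.13, limma adjusted p = 0.063). S1pr3 was not called after removal of cells over 1% other-type RNA (0.93, limma adjusted p = 0.068). Flrt3 went from 1.49 in all cells to 2.49 and 2.81 under these selections, and Gzmb from 1.55 to 1.14 and 0.80. Several of these rest on few molecules: the smallest of the 12 sums held 2 transcripts for Gzmb and Tank and 3 for Il6.

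Galectins, annexins and S100 proteins, the family context of Lgals1, were called higher in 5 of 16 tested members of 28. Over all genes 7.49% were higher. None of the list was lower, and its median log2 difference was 0.24. Lgals3, galectin-3, differed by 0.72 ± 0.17 SE (limma adjusted p = 0.0163, n = 6 mice), Lgals8 by 0.76, Anxa5, a phosphatidylserine-binding annexin, by 0.73 and Anxa6 by 0.42. After removal of cells over 1% other-type RNA, 7 of 16 were higher, beside 5.15% of all genes, and the median was 0.48, with Lgals3 at 0.94. Anxa6 was not called then (0.13, limma adjusted p = 0.47) and had the opposite sign with the 0.5% limit and depth strata (−0.03).

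Cytoskeletal genes showed 8 higher of 39 tested, against 7.49% of all genes, with 0 lower and a median of 0.23. Vim, the intermediate filament vimentin, stood at 6192, 8719, 8012, 7276, 8314 and 5799 TPM in the score-high and 3316, 4454, 4210, 4316, 5131 and 2447 in the score-low sets, so that the 2 sets did not overlap (0.92 ± 0.10 SE, limma adjusted p = 0.000124, n = 6 mice). Capg, an actin-capping protein, differed by 0.79, Arhgdib by 0.56, Cdc42, a GTPase of cell polarity, by 0.46 and Lmna, lamin A/C, by 0.41. Arpc2, a subunit of the ARP2/3 complex, was at 0.28 ± 0.11 and did not pass (limma adjusted p = 0.115). Once cells over 1% other-type RNA were left out, 3 of 38 members were higher and 1 lower, beside 5.15% and 6.0% of all genes. With the 0.5% limit and depth strata 1 of 38 was called, Vim at 0.61, beside 4.22% of all genes higher. Of the adhesion list 3 of 17 were higher, against 7.49% of all genes. These were the hyaluronan receptor Cd44 (0.85), Itga9, an integrin chain (0.64), and Fermt3, kindlin-3, an integrin activator (0.56). Of these Cd44 alone was called without cells over 1% other-type RNA (0.68), where 5.15% of all genes were higher. Itgb1, the integrin β1 chain, was at 0.24 ± 0.14 (limma adjusted p = 0.306).

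Of 23 tested ARF, ARL and cytohesin genes 1 was higher, against 7.49% of all genes, Arf6, a GTPase of plasma membrane trafficking (0.41 ± 0.12, limma adjusted p = 0.0408, n = 6 mice), and the median was 0.12. In cells with at most 1% other-type RNA 2 of 22 were higher, Arf6 and Arl1 (0.66), beside 5.15% of all genes. With the 0.5% limit and depth strata 16 were tested. Of these Arf6 and Arl1 (0.60) were higher and Cyth3, a cytohesin, was lower (−0.63), beside 4.22% and 3.66% of all genes. Arl4a, the closest relative of Arl4c in the list, was at 0.13 ± 0.22 (limma adjusted p = 0.779), and Sla2, the second SLAP gene, did not reach the minimum for testing. In the list of SLAP and IgE receptor signalling genes 2 of 23 were higher, a share near the 7.49% of all genes, Pik3r6, a regulatory subunit of PI3Kγ (1.09), and Lcp2, the adaptor SLP-76 (0.69), beside a median of 0.36. Both calls stood without cells over 1% other-type RNA, of 22 tested, beside 5.15% of all genes, and the list's median was 0.05 there. With the 0.5% limit and depth strata 1 of 22 was called, Pik3r6 (0.69), beside 4.22% of all genes higher. Lcp2 was at 0.19 there (limma adjusted p = 0.443) and the median was −0.04.

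Of 9 proteases tested 6 were higher, against 7.49% of all genes, and 0 lower, with a median of 0.46. Cma1, MC chymase, was at 11590 to 16348 TPM in the score-high and 8050 to 11733 in the score-low sets (0.58 ± 0.13 SE, limma adjusted p = 0.0088, n = 6 mice), Cpa3 differed by 0.43, Mcpt4 by 0.40 and Ctsg, cathepsin G, by 0.69. In cells with at most 1% other-type RNA, only Gzmb was called of 9 tested (1.14), beside 5.15% of all genes higher. There Cma1 was at 0.24 (limma adjusted p = 0.18) and Cpa3 at 0.08. Tpsb2, a tryptase, was at 0.29 ± 0.11 in all cells (limma adjusted p = 0.0922).

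Of 23 tested genes of MC identity and mediators 8 were higher, against 7.49% of all genes. Among them were Mrgprb1, a receptor of the MRGPR family (0.67), Srgn, the granule proteoglycan core (0.65), and Slc6a4, the serotonin transporter (0.64). Others were Hdc, which makes histamine (0.55), and the IgE receptor chains Ms4a2 (0.45) and Fcer1g (0.40). After removal of cells over 1% other-type RNA, 2 were higher, Mrgprb1 (0.35) and Srgn (0.35), and 2 were lower, Gata2, a transcription factor gene of MCs (−0.43), and Ndst2, an enzyme gene of heparin synthesis (−0.61). With the 0.5% limit and depth strata Mrgprb1 (0.34) was higher and Gata2 (−0.42) and Ndst2 (−0.67) were lower. Srgn was not called there (0.25, limma adjusted p = 0.124). Over all genes 5.15% were higher and 6.0% lower in the first selection, and 4.22% and 3.66% in the second. Kit differed by 0.39 ± 0.13 (limma adjusted p = 0.0637) and the MC transcription factor gene Mitf by −0.07 ± 0.16 (limma adjusted p = 0.832).

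Cytokines and chemokines were called higher in 6 of 11 tested members, against 7.49% of all genes, with a median of 0.50. Beside Il6 these were Csf1, the macrophage growth factor (0.95), Il13, a type 2 cytokine (0.82), Tnf (0.74), Tgfb1 (0.74) and the chemokine gene Ccl7 (0.50). Il13 stood at 259, 403, 770, 628, 1240 and 339 TPM in the score-high and 234, 227, 401, 273, 500 and 235 in the score-low sets, higher in 6 of 6 mice with overlap. Once cells over 1% other-type RNA were left out, Il6 and Il13 (0.54) of 11 tested were still higher, beside 5.15% of all genes. Tnf was not called there (0.42, limma adjusted p = 0.083). With the 0.5% limit and depth strata Il6 alone of 10 tested was higher (1.90), beside 4.22% of all genes. Osm, oncostatin M, was lower in both selections (−0.90 and −0.85), beside −0.50 in all cells (limma adjusted p = 0.116). Cells with Il13 or Il6 made up 41.9%, 59.4%, 53.2%, 52.5%, 65.8% and 58.3% of the score-high sets of WT mice 1 to 3 and Tln1∆MC mice 1 to 3. In the score-low sets they made up 32.3%, 37.5%, 48.9%, 30.5%, 32.9% and 56.6%, at the differing depths of the sets. Ranked anew without any such cell, 13 immediate early genes were still lower and 5 cytokine receptor and STAT5 feedback genes higher. Over all 1753 genes tested there, 120 were lower and 83 higher.

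**Figure D5:**
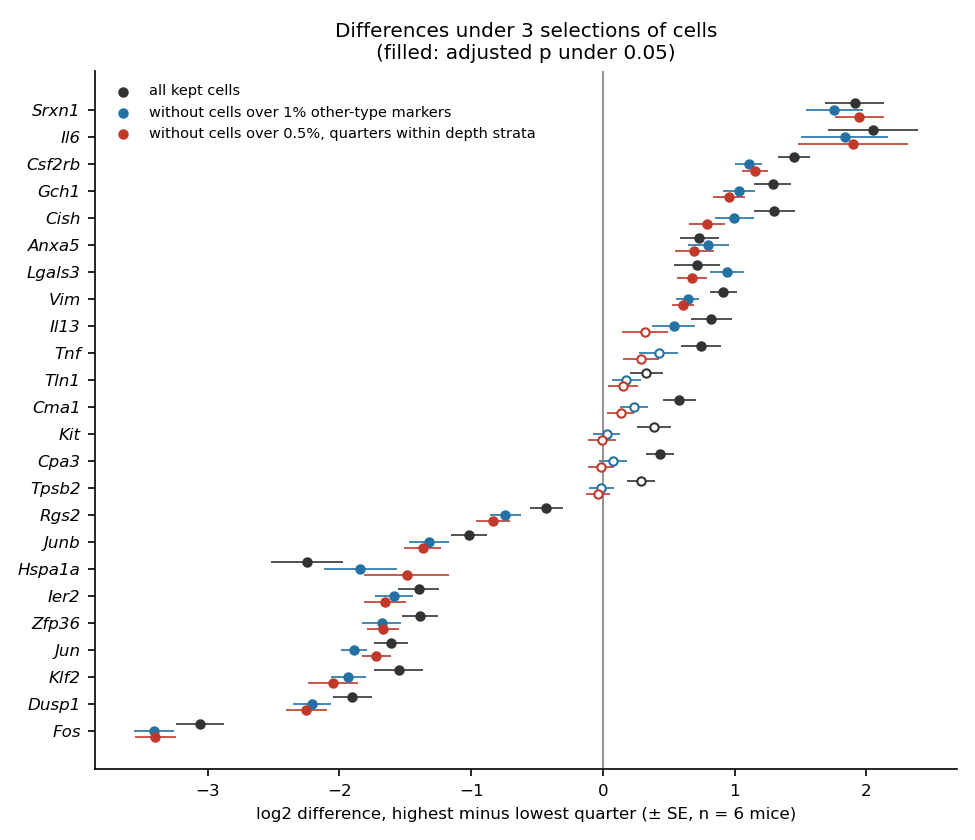
Log2 difference between the score-high and score-low set (± SE, n = 6 mice) for 24 genes under 3 selections of cells: all kept cells (black), without cells over 1% other-type markers (blue) and without those over 0.5% in sets within depth strata (red). Filled points passed an adjusted p of 0.05. Fos to Rgs2 stay below 0 and Vim to Srxn1 above 0 in all 3, while Cma1, Cpa3, Tpsb2 and Kit move towards 0.

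Lysosomal genes were higher in 5 of 24 tested members, against 7.49% of all genes. Among them were 3 proton pump subunits, Atp6v1b2 (1.00), Atp6v1h (0.72) and Atp6v0d1 (0.66), and the lysosomal enzyme gene Hexa (0.69). With the 0.5% limit and depth strata Atp6v1b2 (0.66) and Atp6v0d1 (0.56) remained of 21 tested, beside 4.22% of all genes higher. In the TGF-β list 2 of 8 were higher, Tgfb1 and Tgfbr1 (0.61), against the same 7.49%, and 0 without cells over 1% other-type RNA. None was called of 7 LXR targets (Abca1, a cholesterol exporter, at −0.03 ± 0.17, limma adjusted p = 0.938), 3 cholesterol genes, 5 MHC class I genes and 3 proliferation genes, and few of each list were tested.

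Markers of other skin cells and marks of RNA quality moved with the score as well. All 4 tested keratinocyte markers (Krt5, Krt14, Krt15, Sfn) and all 5 fibroblast markers (among them Col1a1, Col1a2, Col3a1 and Sparc) were lower in the score-high set. So were 4 of 5 macrophage markers (H2-Aa, H2-Ab1, H2-Eb1, C1qb), against 5.16% of all genes. Without cells over 1% other-type RNA, 0 keratinocyte, 2 fibroblast and 3 macrophage markers were still tested, and none was called. Those cells were removed by the summed share of these lists, so this loss of calls, that of Sparc included, is built into the selection. Sfn (−4.18), Col3a1 (−3.94), Col1a1 (−3.88), Id3 (−3.77), Timp3 (−3.20) and Sparc (−3.02) were among the 10 most negative differences of called genes that were lower in all 6 mice, and of these 6 only Sparc was abundant enough to be tested without cells over 1% other-type RNA (−0.89, limma adjusted p = 0.051). Ribosomal protein genes were lower in 33 of 67 members in all cells and in 0 of 67 without those cells, where their median lay close to 0. Mitochondrial genes were lower in 10 of 15 in both. The nuclear RNA Kcnq1ot1 was lower by a log2 difference of −1.19 (limma adjusted p = 0.00167), and by −0.57 with strata of the Gm share. Of the granulocyte markers, Csf3r was lower (−0.85) and Cd200r3, which MCs share with basophils, higher (0.52), but not without cells over 1% other-type RNA (0.12, limma adjusted p = 0.574) or with the 0.5% limit and depth strata (0.22, limma adjusted p = 0.306). The part of other-type RNA, depth and RNA quality in the remaining calls was not tested.

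The difference between the sets was compared between genotypes by an interaction term. None of 3898 genes passed (0.0%, limma adjusted p under 0.05), with 142 positive and 75 negative at an unadjusted p under 0.05, and none passed with voom weights, where these counts were 113 and 84. The smallest p values were those of the pseudogene Rpl7a-ps5 (interaction 1.51), Sparc (2.13), Klf4 (−1.10), Ctsc (1.23) and Gtpbp4 (−1.73), each with a limma adjusted p of 0.845. Whether reads of Rpl7a-ps5 can be told from those of its parent gene was not examined. Fos differed by −3.34, −3.06 and −2.45 in WT mice and by −3.84, −3.44 and −2.20 in Tln1∆MC mice, and Csf2rb by 1.46, 1.35 and 1.92 and by 1.07, 1.44 and 1.49. Within WT mice alone 74 genes were higher and 144 lower, and within Tln1∆MC mice alone 35 and 19, counts that do not compare the genotypes.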

How the data were processed

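Transcript tables of single cells were deposited for 34 libraries, 30 of sorted ear-skin MCs and 4 of a Myh11-GFP sort, with 192 barcode columns each. Kept cells fell in 1 set of 96 per library, except 5 MCs, 1 in each of 5 libraries of Tln1∆MC mouse 3, and 2 cells in each of the 4 Myh11-GFP libraries, which are counted among the kept cells. Per the labels and the study's methods, the authors demultiplexed reads with bcl2fastq (2.17.1.14), aligned them to mm10 transcripts with BWA (0.6.2-r126) and collapsed reads to molecular identifiers. The deposited values are transcript numbers, not whole counts: each is a count of distinct identifiers of 6 bases corrected for collisions among 4096 possible ones, and inverting that formula gave whole identifiers within a tolerance of 1e-06. Count models were therefore not used.

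Cells with over 1000 transcripts outside Gm genes were kept, ranked by score within each library and summed per mouse and score set. A gene was tested where 6 or more of the 12 sums held 10 transcripts or more, on log2(TPM after TMM scaling + 1), a scale that understates changes of low genes, with limma (3.58.1, R 4.3.3), the mouse as a block and Benjamini-Hochberg adjustment at 0.05. Gm genes, spike-ins and the 3 score genes were left out. SE is that of the log2 difference. Sums ranged over cells of differing depth, and the smallest sums set the precision. Depth and quality were compared over the 6 mice by exact permutation. Tables were read with Python 3.11.15, numpy 2.4.6, pandas 2.3.3 and scipy 1.17.1. The model was tested on simulated data with known changes. No doublet caller was run, since the sort gated on single cells. All 192 barcodes recur in each library, so a barcode names no cell across libraries.

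The cells, gene lists and tests were chosen with earlier results of these data known, and 2 lists (cytokine receptor and STAT5 feedback genes, NRF2 targets) and the selections by other-type RNA at 0.5%, Gm share and Il13 or Il6 were added after values had been seen. Named genes were the 20 most positive and 10 most negative differences among called genes of one direction in all 6 mice with a mean level of at least 50 TPM, up to 4 members a list by p, and 5 interactions; ribosomal and mitochondrial genes were given as groups, and further list members named as examples were chosen after their values were seen. Mice of a genotype were numbered by the labels, and each mouse gave both score sets, which is where the pairing comes from.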

Additional observations from a re-analysis of the deposited data

Results flagged for a closer look

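A value far from the rest was looked for in 115 sets of 6 mouse values. These were differences between the score sets, apart from the median score and the levels of the 3 score genes per mouse. Such a value was found in 3 sets, fewer than the 1 in 20 that chance gives. For Gzmb, Tln1∆MC mouse 1 differed between its score-high and score-low cells by 3.782 on the log2 scale and the next mouse by 1.741. For Mrgprb1, WT mouse 3 differed by 1.009 and the next by 0.654. For Junb, Tln1∆MC mouse 2 differed by −0.2602, while the nearest other mouse stood at −0.960.

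Opposite directions were looked for among the genes named in the text and the 5 with the smallest interaction p, not among all genes tested. For 2 of these, the sets differed in one direction in all WT mice and in the other in all Tln1∆MC mice. Both were among the 5 chosen by the interaction itself, and no share over all genes was taken. Ctsc, which encodes cathepsin C, had an interaction of 1.234 (Tln1∆MC minus WT), and Gtpbp4, which encodes a GTPase of ribosome assembly, one of −1.729. Neither passed the test across all genes (limma adjusted p = 0.845).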

How the results depend on the processing

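Of 93 named genes called on all cells, over 3126 pairs of gene and alternative, 2454 kept direction and call, 666 lost the call and 6 reversed. Pairs in which a gene was not tested were left out. Over all calls, 177 of the 201 lower ones were still tested without cells over 1% other-type RNA, and 16 of these reversed. With the 0.5% limit and depth strata 15 lower and 6 higher calls reversed. The 292 higher and 201 lower calls became 74 and 22 without the replicate block that pairs both sets of a mouse, all among the calls with it. Higher calls were 453 without TMM (median over all genes 0.16 in place of 0.06), 90 without a filter, 170 with at least 50 transcripts, 124 with means over cells, 109 at an adjusted p under 0.01, 179 with a thinned score, 161 with the score of Arl4c and Lgals1, 160 with that of Sla and Lgals1, 176 and 152 without cells over 1% and 0.5% other-type RNA, 129 with the latter and depth strata, 190 with Gm strata, 83 without Il13 or Il6 cells, 74 in WT and 35 in Tln1∆MC mice alone, and 142 to 233 without 1 mouse. Lower calls were 328 with voom, 306 with Gm genes kept (beside 257 higher), 48 without a filter, 122 with at least 50 transcripts, 65 at 0.01, 128 with the score of Sla and Lgals1, 112 with the 0.5% limit and depth strata, 120 without Il13 or Il6 cells, 19 in Tln1∆MC mice alone, and 96 to 213 without 1 mouse. Interactions called were 3 with the score of Arl4c and Lgals1 (Col1a1, Col1a2, Sparc) and 2 (Sparc, S100a4) with 2 equal parts. The log2 ratio of transcripts per cell was 0.13 with a thinned score, −0.0383 with depth strata, 0.26 with the 0.5% limit and 0.0017 with both, and the mitochondrial difference with both was −1.66 points. The cause of these changes was not tested.

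Signs reversed for Cpa3 (−0.013), Anxa6 (−0.034), Kit (−0.0048), Atf3 (0.079) and Ms4a2 (−0.088) with the 0.5% limit and depth strata. With the score of Arl4c and Lgals1 Il13 was at −0.37 and Ccl7 at −0.12. The Mitf log2 difference was 0.027 without TMM, 0.056 with a thinned score and 0.034 in WT mice alone, and ran from −0.171 to 0.027 without 1 mouse. The Tpsb2 log2 difference was −0.011, −0.036 and −0.034 without cells over 1%, over 0.5%, and over 0.5% with depth strata. The Itgb1 log2 difference was −0.015 with a thinned score and −0.0055 with Gm strata. The Abca1 log2 difference was 0.057 with voom, 0.071 without TMM, 0.017 without a filter, 0.085 with a thinned score, 0.040 with depth strata, 0.177 with the score over all transcripts, 0.080 with the score of Arl4c and Sla, 0.00034 with 2 equal parts, 0.151 over 2000 transcripts, 0.049 and 0.153 under the 1% and the 0.5% limit with depth strata, 0.030 without the library rich in macrophage markers and 0.0093 with Gm strata, and ran from −0.121 to 0.056 without 1 mouse. The Arl4a log2 difference was −0.058 with voom, −0.143 with the score of Sla and Lgals1, −0.092 without Il13 or Il6 cells and −0.163 in Tln1∆MC mice alone, and ran from −0.068 to 0.321 without 1 mouse. The Gata2 log2 difference was 0.016 without TMM, 0.119 with a thinned score, 0.025 with the score over all transcripts and 0.078 with that of Arl4c and Sla. The Cyth3 log2 difference was 0.012 with a thinned score and 0.037 with the score of Arl4c and Sla, where the Dnajb1 log2 difference was 0.00056. The interaction of Sparc was −0.11, −0.28 and −0.60 under the 1%, the 0.5% and the 0.5% limit with depth strata. Leaving out cells with over 2% Kcnq1ot1 removed none.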
